A study of Mus musculus with 12 samples.

Results

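The genes Sod1, Sod2, Cat, Gpx1 and Gpx4 encode the classical enzymes that remove superoxide and peroxides from mammalian cells. They were taken by symbol from a table of 25192 genes measured in RAW264.7 cells, a single transformed mouse macrophage-like line. All 5 genes are in the table, and all 5 were among the 14065 genes that passed the filter on low counts, with at least 67 reads each in every library. The study holds 12 poly(A) RNA libraries in 3 groups of 4. Control cells have no added agent in the labels. LPS cells received lipopolysaccharide, a component of the outer membrane of Gram-negative bacteria, at 1 µg/mL for 24 h. Ferulic acid plus LPS cells were given the plant phenolic acid ferulic acid at 10 µM for 12 h before LPS for 24 h. Ferulic acid without LPS was not analysed here. Whether libraries of a group are separate cultures is not in the labels, so p-values measure the spread between libraries, which may be technical.

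Superoxide dismutases turn superoxide into oxygen and hydrogen peroxide. SOD1, which needs copper and zinc, works in the cytosol, and SOD2, which needs manganese, works in the mitochondrial matrix. Catalase, encoded by Cat, breaks down hydrogen peroxide in peroxisomes. The glutathione peroxidases spend glutathione to reduce peroxides: GPX1 acts mainly on hydrogen peroxide, and GPX4 acts on lipid hydroperoxides within membranes and is the main brake on ferroptosis. In macrophages, activation through the LPS receptor raises both the production of oxidants and several of the genes that remove them, and Sod2 is a well-known target of that response.

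Total counts ran from 34261236 to 48446195 in control, 35866432 to 47276784 in LPS and 32548423 to 49961581 with ferulic acid plus LPS. All 10 macrophage markers examined had reads, among them Lyz2, Cd68, Csf1r and Cd14, although Mertk was at 0 in control. Summed macrophage markers ran from 4357.8 to 4865.3 CPM, TMM-scaled counts, in control, 3150.4 to 3447.3 in LPS and 2888.1 to 3379.2 with ferulic acid plus LPS. Single markers differed in direction: between control and LPS, Lyz2 had means of 2412 and 395 CPM and Csf1r of 1040 and 129, whereas Adgre1 was at 38.0 and 337, Cd68 at 510 and 1001, and Cd14 at 292 and 1049. Of 8 T cell markers 5 had reads, summing to 3.54 to 4.21 CPM in control, 31.5 to 35.7 in LPS and 23.7 to 34.6 with ferulic acid plus LPS, almost all of it Lck. Of 6 B cell markers 4 had reads, summing to 351 to 372, 141 to 182 and 87.5 to 173 CPM in the same order, almost all of it Ighm. Neutrophil, fibroblast and epithelial markers summed to at most 6.35 CPM in any library. The part of these markers in the results below was not tested. In bulk RNA, fewer cells of a type and less RNA per cell cannot be told apart.

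Levels are given in FPKM as deposited, which divides the count by gene length and library total. Comparing genes by FPKM rests on those lengths, which were derived here from the deposited counts and FPKM. They are 3970 bases for Sod1, 10008 for Sod2, 2613 for Cat, 1441 for Gpx1 and 1724 for Gpx4. Whether they match the transcripts expressed was not tested. Before division by length, mean CPM in control was 95.8 for Sod1 and 104.5 for Gpx4. Fold changes come from edgeR's quasi-likelihood test on counts with TMM scaling, which assumes that most genes keep their level, and CPM values carry the same scaling. A gene counts as called where its p, adjusted by the Benjamini-Hochberg method over the 14065 genes tested, was under 0.05. The TMM factors ran from 1.49 to 1.55 in control, 0.764 to 0.854 in LPS and 0.726 to 0.960 with ferulic acid plus LPS. For LPS against control, the median log2 fold change over the tested genes was -0.10 with TMM scaling and -0.99 with library size scaling, so FPKM values show smaller rises and larger falls than CPM values.

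LPS raised 3 of the 5 genes and lowered 1 whichever scaling was used. With TMM scaling Sod2 rose the most, by 11-fold, Gpx4 and Sod1 rose by 3.76-fold and 3.31-fold, and Cat fell to a level 2.82-fold lower. Their log2 fold changes with library size scaling were 2.56 for Sod2, 1.01 for Gpx4, 0.83 for Sod1 and -2.39 for Cat. Gpx1 rose by 1.72-fold with TMM scaling and was also called with DESeq2's size factors in edgeR (log2 fold change 0.77, adjusted p = 0.00731), but it was at -0.11 (adjusted p = 0.712) with library size scaling. All 5 genes were called with TMM scaling, in an experiment where 73.8% of all tested genes were called (35.6% higher and 38.3% lower), so being called does not set these genes apart. With library size scaling 17.5% of genes were called higher and 59.0% lower. The ranges of LPS and control were apart in CPM for all 5, as for 75.3% of all genes, and in FPKM for the 4 genes other than Gpx1, as for 78.4%.

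Sod2 lies on mouse chromosome 17, + strand (ENSMUSG00000006818). The 250 bases before its start in RefSeq (GRCm38.p6, chr17:13007589-13007838, + strand) are shown because this gene had the largest rise. Capitals mark GC boxes (GGGCGG, either strand) and CCAAT boxes (CCAAT, either strand).

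Sod2 promoter: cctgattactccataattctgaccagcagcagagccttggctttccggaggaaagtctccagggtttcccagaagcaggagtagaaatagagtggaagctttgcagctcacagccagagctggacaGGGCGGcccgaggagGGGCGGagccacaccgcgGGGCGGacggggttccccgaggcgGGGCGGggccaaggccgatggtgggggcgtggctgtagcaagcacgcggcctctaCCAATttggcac

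Sod2 stood at 9.35, 9.35, 9.74 and 10.1 FPKM in control libraries 1 to 4. It stood at 57.0, 53.1, 63.9 and 53.1 FPKM in the LPS libraries, and at 50.1, 64.2, 53.3 and 52.5 FPKM in the ferulic acid plus LPS libraries. Every LPS-treated library was thus far above every control library, and the control libraries hardly differed from one another. Means in CPM were 63.5 ± 1.97 in control, 698 ± 59.8 in LPS and 679 ± 29.8 with ferulic acid plus LPS (SD, n = 4 each). The log2 fold change for LPS was 3.46 (SE 0.13, 95% interval 3.19 to 3.73, edgeR adjusted p = 6.9e-13), and 2.56 with library size scaling. Of all tested genes, 3.6% had a larger log2 fold change. By FPKM, Sod2 moved from rank 4674 of the tested genes in control to rank 892 in LPS.

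Sod1 (ENSMUSG00000022982, chromosome 16, + strand) was already abundant before LPS. Its FPKM was 33.9, 42.9, 36.7 and 32.8 in control libraries 1 to 4. LPS libraries stood at 60.6, 63.3, 75.6 and 60.9, and ferulic acid plus LPS libraries at 59.6, 63.8, 76.5 and 58.8. No control library reached any treated library, and the LPS and ferulic acid plus LPS libraries covered nearly the same range, with library 3 the highest in both. Mean CPM was 95.8 ± 13.6 in control, 317 ± 26.4 in LPS and 319 ± 45.4 with ferulic acid plus LPS (SD, n = 4 each). LPS changed Sod1 by a log2 fold change of 1.73 (SE 0.15, 95% interval 1.42 to 2.03, edgeR adjusted p = 1.7e-08), and by 0.83 with library size scaling. The gene body of Scaf4 overlaps Sod1 in the GENCODE annotation used here, but no exon of another gene does.

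Cat (ENSMUSG00000027187) lies on the - strand of chromosome 2. The 250 bases before its RefSeq start (GRCm38.p6, chr2:103485154-103485403, - strand) are shown because Cat moved opposite to Sod2. Capitals mark the same boxes, with ATTGG the CCAAT box on the other strand.

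Cat promoter: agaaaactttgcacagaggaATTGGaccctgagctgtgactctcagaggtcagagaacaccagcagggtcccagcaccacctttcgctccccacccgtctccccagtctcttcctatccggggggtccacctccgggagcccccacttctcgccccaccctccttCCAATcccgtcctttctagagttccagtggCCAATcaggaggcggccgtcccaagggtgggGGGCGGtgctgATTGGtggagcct

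Cat stood at 31.7, 27.6, 29.9 and 31.6 FPKM in control libraries 1 to 4, close to the level of Sod1. In the LPS libraries it stood at 4.71, 5.39, 6.26 and 6.70 FPKM. Ferulic acid plus LPS libraries had 3.87, 12.3, 6.43 and 3.48 FPKM. Every treated library lay below every control library, and within the ferulic acid plus LPS group library 2 was well above the others. Mean CPM was 52.0 ± 2.52 in control, 18.4 ± 2.02 in LPS and 20.1 ± 9.74 with ferulic acid plus LPS (SD, n = 4 each). For LPS against control the log2 fold change of Cat was -1.50 (SE 0.24, 95% interval -2.0 to -0.99, edgeR adjusted p = 2.6e-05), and -2.39 with library size scaling. By FPKM, Cat went from rank 1703 of the tested genes in control to rank 4434 in LPS.

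Gpx1 (ENSMUSG00000063856, chromosome 9, + strand) and Gpx4 (ENSMUSG00000075706, chromosome 10, + strand) share an in-frame TGA codon that is read as selenocysteine, the catalytic residue of both enzymes. The codon, in capitals, is shown with 30 coding bases on each side from the GENCODE transcripts (build GRCm38), because it makes both genes depend on the selenium genes measured here. It is codon 47 of the Gpx1 transcript and codon 129 of the Gpx4 transcript used, and 35 of the 63 bases shown are identical.
Gpx1: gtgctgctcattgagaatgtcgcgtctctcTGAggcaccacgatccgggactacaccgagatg
Gpx4: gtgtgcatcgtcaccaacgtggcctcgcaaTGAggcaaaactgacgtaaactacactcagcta

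Gpx4 had the highest FPKM of the 5 genes in every group, whereas Sod2 had the highest mean CPM in both treated groups. It stood at 81.3, 105, 99.7 and 81.7 FPKM in control libraries 1 to 4. In LPS libraries it stood at 205, 195, 163 and 176 FPKM, and in ferulic acid plus LPS libraries at 223, 108, 192 and 219. The treated libraries were all above the control ones, but ferulic acid plus LPS library 2 lay only just above the highest control library. Mean CPM was 105 ± 15.7 in control, 393 ± 60.3 in LPS and 408 ± 151 with ferulic acid plus LPS (SD, n = 4 each). The change with LPS was a log2 fold change of 1.91 (SE 0.24, 95% interval 1.40 to 2.42, edgeR adjusted p = 2.1e-06), and 1.01 with library size scaling.

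Reads of Gpx4 could be shared with its pseudogene copy Gpx4-ps2 (ENSMUSG00000110841), and the sources used here do not give how such reads were counted. Gpx4-ps2 held 835 to 2405 reads per library, 11.4% to 14.8% of the sum of both. Its log2 fold change for LPS was 1.69 (SE 0.20, edgeR adjusted p = 1.3e-06), and with both rows summed Gpx4 changed by 1.88. The pseudogene row therefore moved the value for Gpx4 by less than its standard error.

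Gpx1 was by far the least abundant member, and its values rest on 67 to 159 reads per library. How reads shared between genes were counted is not stated in the sources, so the level of Gpx1 is uncertain, and with it its place in the order and the ratios that use it. A count of 67 has a 95% Poisson interval of 51.9 to 85.1 reads, which covers counting error only. Its FPKM was 1.58, 1.66, 1.89 and 1.84 in control libraries 1 to 4. LPS libraries had 1.33, 1.59, 1.78 and 1.78 FPKM, and ferulic acid plus LPS libraries had 1.54, 1.97, 2.21 and 1.24. In FPKM the 3 groups overlapped, so no rise is seen on that scale. In CPM, by contrast, every LPS library lay above every control library, with means of 1.65 ± 0.145 in control, 2.85 ± 0.245 in LPS and 3.07 ± 0.618 with ferulic acid plus LPS (SD, n = 4 each). The TMM-scaled log2 fold change of Gpx1 was 0.78 (SE 0.24, 95% interval 0.28 to 1.29, edgeR adjusted p = 0.00682). It was -0.11 (adjusted p = 0.712) with library size scaling and 0.22 (adjusted p = 0.42) after a trend with gene length was removed from each library. Relative to the median of all genes, the value for Gpx1 was 0.88 under both TMM and library size scaling. A change of scaling moves all genes by nearly the same amount, so this match is fixed in advance and is no support for a rise. No exon of another gene overlaps Gpx1 in the annotation used here, which is of an earlier build than the files.

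**Figure D1:**
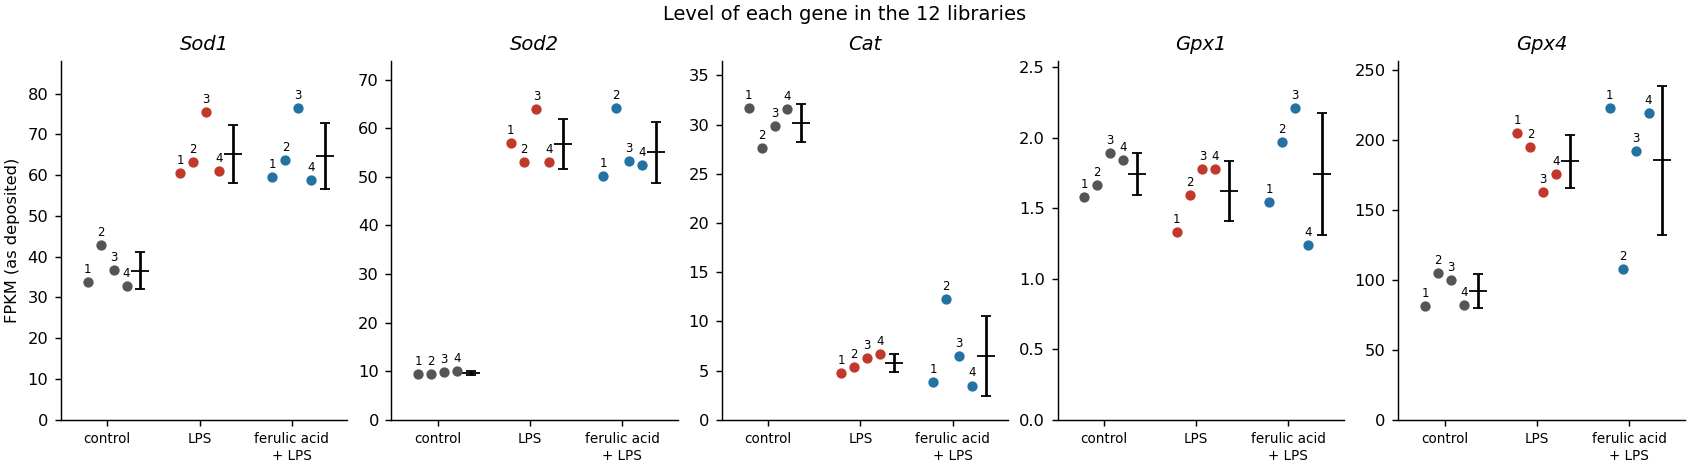
FPKM of each gene (y axis, from 0) in the 12 libraries, numbered by replicate; bars are the mean and SD of 4 libraries. Sod1, Sod2 and Gpx4 are higher and Cat lower in all 8 LPS-treated libraries than in any control library, while Gpx1 overlaps between 1.24 and 2.21 FPKM.

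**Figure D2:**
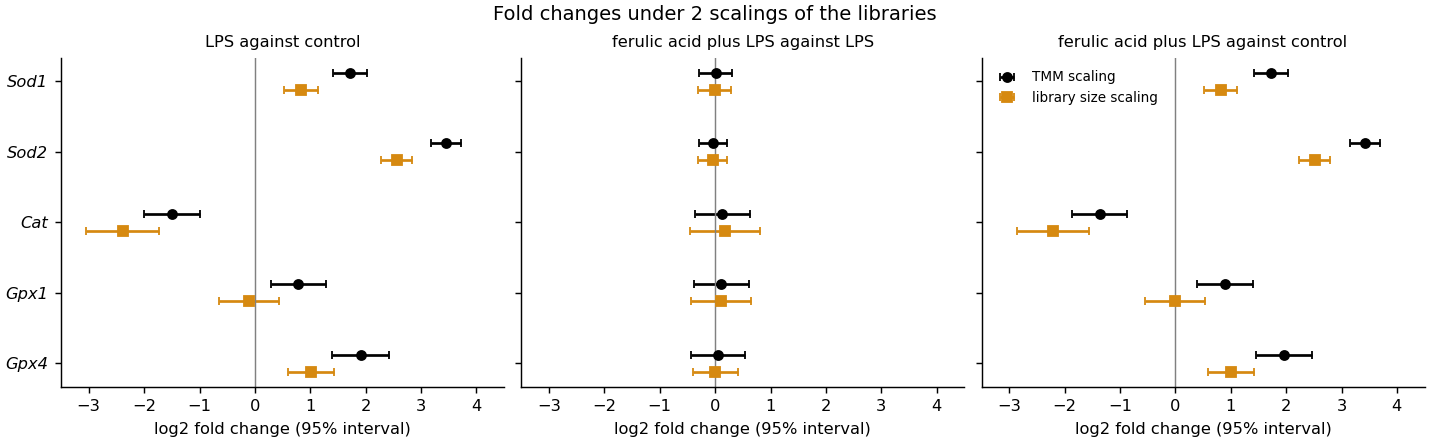
Log2 fold changes with 95% intervals for the 3 comparisons, with TMM scaling (black circles) and library size scaling (orange squares). Library size scaling shifts the comparisons with control downwards, taking Gpx1 for LPS from 0.78 to -0.11, and leaves the middle panel close to 0.

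The order of the 5 genes by FPKM changed with LPS. In control cells it was Gpx4, Sod1, Cat, Sod2 and Gpx1, at means of 91.9, 36.6, 30.2, 9.63 and 1.74 FPKM, and no neighbours in that order overlapped. In LPS cells it was Gpx4, Sod1, Sod2, Cat and Gpx1, at 185, 65.1, 56.8, 5.76 and 1.62 FPKM. Sod2 and Cat had changed places, and the ranges of Sod1 and Sod2 now overlapped, although Sod1 was the higher in 4 of 4 libraries. Ferulic acid plus LPS cells gave the same order, at 185, 64.7, 55.0, 6.53 and 1.74 FPKM, with Sod1 above Sod2 in 3 of 4 libraries. Gpx4 ranked 497 among the tested genes by FPKM in control and 336 in LPS, and Gpx1 ranked 9671 and 7719.

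Ratios of FPKM within a library do not depend on how libraries are scaled. They do carry any trend with gene length that differs between libraries. With that trend removed, the LPS log2 fold change was 4.22 for Sod2 and 1.80 for Sod1, against 3.46 and 1.73 without removal. It was -1.69 for Cat, 0.22 for Gpx1 and 1.46 for Gpx4, against -1.50, 0.78 and 1.91. The ratios given here are without that removal. The ratio of mitochondrial to cytosolic dismutase, Sod2 to Sod1, was 0.276, 0.218, 0.266 and 0.307 in control libraries 1 to 4. It was 0.942, 0.840, 0.845 and 0.872 in LPS libraries, a mean 3.28-fold higher, and 0.841, 1.00, 0.697 and 0.893 in ferulic acid plus LPS libraries. By FPKM, both dismutases were thus at similar levels after LPS, where Sod1 had led in every control library. That similarity rests on the gene lengths used. Before division by length, mean CPM in LPS was 698 for Sod2 and 317 for Sod1.

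Catalase stood lower against both partners examined. The ratio of Cat to Sod1 had a mean of 0.840 ± 0.147 in control, 0.0889 ± 0.0144 in LPS and 0.10 ± 0.0627 with ferulic acid plus LPS (SD, n = 4 each), with no overlap of control and LPS libraries. The ratio of Cat to Gpx1, both of which remove hydrogen peroxide, was 17.4 ± 1.88 in control, 3.56 ± 0.154 in LPS and 3.62 ± 1.76 with ferulic acid plus LPS. Between the glutathione peroxidases, the ratio of Gpx1 to Gpx4 was 0.0192 ± 0.00276 in control and 0.00890 ± 0.00201 in LPS, without overlap. Ferulic acid plus LPS libraries had a mean of 0.0106 ± 0.00572, and library 2, at 0.0183, lay within the control range.

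**Figure D3:**
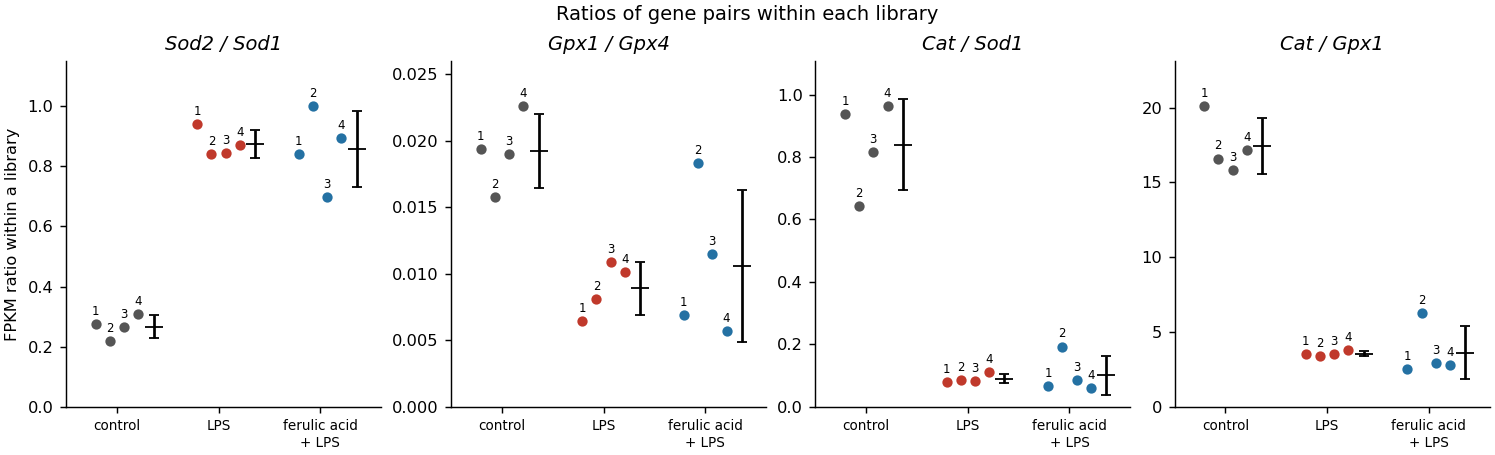
FPKM ratios of gene pairs within each library (y axis, from 0), numbered by replicate; bars are the mean and SD of 4 libraries. Sod2/Sod1 goes from 0.218 to 0.307 in control to 0.840 to 0.942 in LPS, and Cat/Sod1 and Cat/Gpx1 are lower in all treated libraries than in any control library.

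Between ferulic acid plus LPS and LPS alone, no difference in the 5 genes passed the test. None of the 5 was called by edgeR, and none had an unadjusted p under 0.05, as 3236 of the 14065 genes tested had. DESeq2, voom with quality weights and limma on FPKM called 0 of the 5 as well. Over all genes edgeR called 0.284% in this comparison, DESeq2 985 of 10778, voom 3400 of 14065 and limma on FPKM at most 1. The libraries of both groups overlapped in CPM for each of the 5, where 7.02% of all genes showed no overlap. The intervals bound the difference that these libraries allow. For Sod2 the log2 fold change for ferulic acid plus LPS against LPS was -0.04 (95% interval -0.29 to 0.21, adjusted p = 0.87), and for Sod1 it was 0.01 (-0.29 to 0.31, adjusted p = 0.988). For Cat it was 0.13 (-0.37 to 0.62, adjusted p = 0.775), for Gpx1 0.11 (-0.39 to 0.61, adjusted p = 0.812) and for Gpx4 0.05 (-0.44 to 0.55, adjusted p = 0.922). The intervals of the dismutases thus exclude changes larger than about 1.24-fold in either direction, whereas those of Cat, Gpx1 and Gpx4 still reach 1.54-fold, 1.53-fold and 1.46-fold higher.

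The wide intervals of Cat and Gpx4 go with differences among the 4 ferulic acid plus LPS libraries. Cat was at 13.4, 33.6, 20.8 and 12.5 CPM in libraries 1 to 4, and Gpx4 at 509, 194, 409 and 519 CPM. The libraries with the lowest Cat, 1 and 4, had the highest Gpx4, and library 2 had the reverse. The share of reads on ribosomal protein genes was 21.7%, 13.6%, 17.2% and 21.8% in the same libraries, against 14.6% to 16.8% in LPS and 7.95% to 10.3% in control. On the second principal component of all genes, which held 6.81% of the variance, libraries 1 and 4 scored -44.0 and -76.6 and libraries 2 and 3 scored 25.6 and 7.56, with LPS libraries from 12.5 to 41.3. The labels give no batch, and the part of these library differences in the values was not tested. Without libraries 2 and 3, the log2 fold change against LPS was -0.52 for Cat and 0.37 for Gpx4, and without libraries 1 and 4 it was 0.56 and -0.38. Since the libraries were paired by their place among these same data, these are descriptions with no test, and the direction for both genes turned on which libraries were kept.

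**Figure D4:**
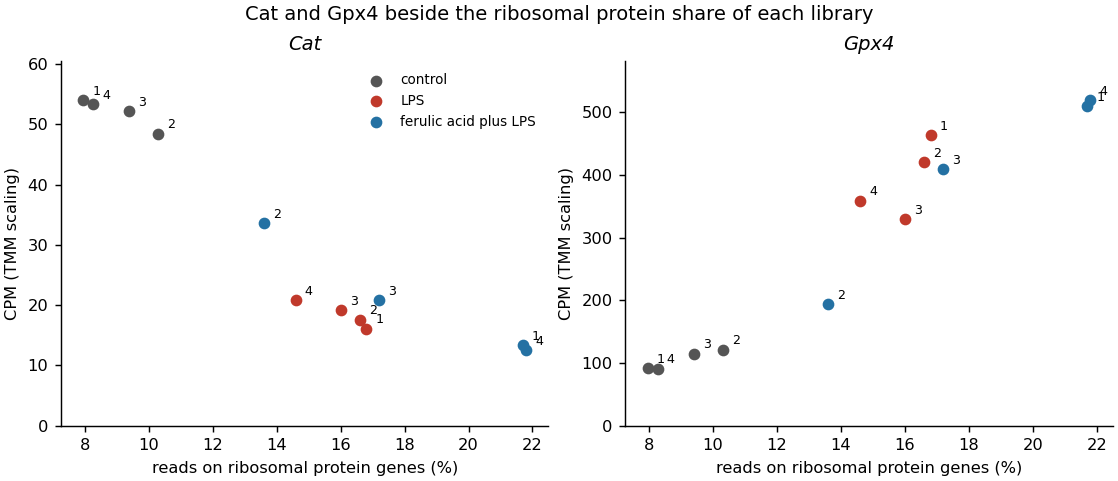
CPM of Cat and Gpx4 (y axes, from 0) against the percentage of reads on ribosomal protein genes in each of the 12 libraries, numbered by replicate. Ferulic acid plus LPS libraries 1 and 4, at 21.7% and 21.8%, have the lowest Cat and highest Gpx4, and library 2, at 13.6%, has the highest Cat and lowest Gpx4 of the 8 treated libraries.

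Against control, the ferulic acid plus LPS cells gave values close to those of LPS alone, and both comparisons share the same control libraries. All 5 genes were called where 73.3% of all tested genes were, and none overlapped in CPM, as for 68.2% of genes. The log2 fold changes were 3.42 for Sod2 (SE 0.13, edgeR adjusted p = 7.9e-13), 1.73 for Sod1 (SE 0.15, adjusted p = 1.7e-08) and 1.96 for Gpx4 (SE 0.24, adjusted p = 1.6e-06). Cat fell by 1.37 on the log2 scale (SE 0.24, adjusted p = 6.4e-05). Gpx1 was at 0.90 (SE 0.24, adjusted p = 0.00275) with TMM scaling, and its groups overlapped in FPKM.

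Other genes of both enzyme families were scarcely present. Gpx3, the secreted glutathione peroxidase, had 56 reads over the 4 control, 6 over the 4 LPS and 0 over the 4 ferulic acid plus LPS libraries. Gpx2 and Gpx8 each had 2 reads, all in control, and Gpx7 had 5, all in LPS. None of these passed the filter. Sod3, Gpx5 and Gpx6 have no row under those symbols, so they were not analysed here.

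Genes that serve these enzymes were grouped into lists by known function. Their counts with LPS stand against 35.6% of all tested genes higher and 38.3% lower with TMM scaling, and 17.5% and 59.0% with library size scaling. In the copper and manganese supply list, 4 of 8 tested genes rose with LPS and 1 fell, at a median log2 fold change of 0.18. With library size scaling 3 rose and 4 fell, at a median of -0.72. Ccs, the chaperone that loads copper into SOD1, was at 21.2 ± 1.06 CPM in control and 20.5 ± 1.68 in LPS. Its log2 fold change was -0.04 (SE 0.14, edgeR adjusted p = 0.798), but -0.94 (adjusted p = 8.0e-05) with library size scaling. Slc11a2, a divalent metal transporter, rose from 29.2 to 132 CPM (a log2 change of 2.17, SE 0.15, adjusted p = 1.9e-09), and Slc31a2, a copper transporter, rose from 6.51 to 27.2 CPM (2.06, SE 0.18, adjusted p = 3.2e-08). Both rose under library size scaling as well.

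GPX1 and GPX4 need the selenocysteine machinery, in which 6 of 9 tested genes fell with LPS and 3 rose, at a median log2 fold change of -0.65 (6 and 2, at a median of -1.54, with library size scaling). Sephs2, which makes the selenium donor for selenocysteine, fell from 176 ± 3.45 to 62.8 ± 1.49 CPM (a log2 change of -1.48, SE 0.11, edgeR adjusted p = 4.8e-09). Trnau1ap, which binds the selenocysteine transfer RNA, rose from 12.3 ± 1.96 to 50.5 ± 3.98 CPM (a log2 change of 2.04, SE 0.16, adjusted p = 7.9e-09). Of 15 other selenoprotein genes tested, 10 rose and 4 fell, at a median of 1.19, against -0.10 for all genes (7 and 4, at a median of 0.30, with library size scaling). Selenow, a small selenoprotein, rose from 8.39 ± 1.25 to 231 ± 24.9 CPM, and Selenop, which carries selenium between tissues, fell from 1.05 ± 0.200 to 0.0248 ± 0.0496 CPM (adjusted p = 1.1e-12 and 1.6e-04).

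The glutathione supply that GPX1 and GPX4 spend moved in both directions. Of 13 tested genes 7 rose and 5 fell, at a median log2 fold change of 0.74, whereas with library size scaling 4 rose and 6 fell, at a median of -0.15. Gclc, the catalytic subunit of the enzyme that starts glutathione synthesis, fell from 24.6 ± 1.11 to 2.74 ± 0.873 CPM (a log2 change of -3.16, SE 0.37, edgeR adjusted p = 8.3e-07). Slc3a2, the heavy chain of amino acid exchangers that include the cystine importer, rose from 157 ± 5.54 to 897 ± 58.9 CPM (2.52, SE 0.15, adjusted p = 3.5e-10). Both kept these directions under library size scaling.

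The peroxiredoxins and thioredoxins are the other main route of peroxide removal, and 9 of 10 genes rose with LPS and 1 fell, at a median log2 fold change of 0.80. With library size scaling 4 rose and 2 fell, at a median of -0.09. Prdx5, a peroxiredoxin of mitochondria, peroxisomes and cytosol, rose from 82.8 ± 6.68 to 3029 ± 334 CPM (a log2 change of 5.19, SE 0.22, edgeR adjusted p = 4.1e-12). Prdx1 rose from 685 ± 111 to 4004 ± 420 CPM (adjusted p = 4.9e-07). Among genes whose products release superoxide or hydrogen peroxide, 6 of 13 rose and 3 fell, at a median of 0.12, whereas with library size scaling 2 rose and 10 fell, at a median of -0.77. Xdh, xanthine dehydrogenase, dropped from 2.14 ± 0.0968 to 0.0305 ± 0.0365 CPM (adjusted p = 6.8e-06), and Acox3, a peroxisomal oxidase that forms hydrogen peroxide, from 43.0 ± 3.13 to 7.73 ± 1.53 CPM (adjusted p = 1.0e-06).

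Cat is a peroxisomal enzyme, and the peroxisome list held 7 genes that rose and 9 that fell among 22 tested, shares close to those of all genes, at a median log2 fold change of -0.24. With library size scaling 1 rose and 15 fell, at a median of -1.14. Acaa1a, a thiolase of the peroxisomal matrix, fell from 214 ± 14.1 to 59.0 ± 6.84 CPM (a log2 change of -1.86, SE 0.15, edgeR adjusted p = 9.8e-09). Cat's own log2 fold change of -1.50 lay between the median of this list and the value of Acaa1a.

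In the ferroptosis and lipid peroxide list, to which GPX4 is central, 8 of 12 tested genes rose and 4 fell, at a median log2 fold change of 0.64. With library size scaling 3 rose and 5 fell, at a median of -0.26. Fth1, the ferritin heavy chain that stores iron, rose from 1059 ± 53.2 to 21060 ± 1949 CPM (a log2 change of 4.31, SE 0.17, edgeR adjusted p = 1.8e-12). Alox5, a lipoxygenase, fell from 84.1 ± 8.35 to 3.55 ± 1.55 CPM (-4.56, SE 0.39, adjusted p = 2.5e-08). Fth1 and Prdx1 have processed pseudogenes, so their counts are uncertain in the same way as that of Gpx4. Among 10 genes of mitochondrial matrix upkeep, where SOD2 works, 5 rose and 4 fell, at a median of 0.78 (5 and 5, at a median of -0.11, with library size scaling). Clpp, a matrix protease, rose from 17.7 to 72.9 CPM (2.05, SE 0.14, adjusted p = 1.5e-09), and Polg, the mitochondrial DNA polymerase, fell from 32.7 to 10.9 CPM (-1.59, SE 0.17, adjusted p = 4.3e-07).

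**Figure D5:**
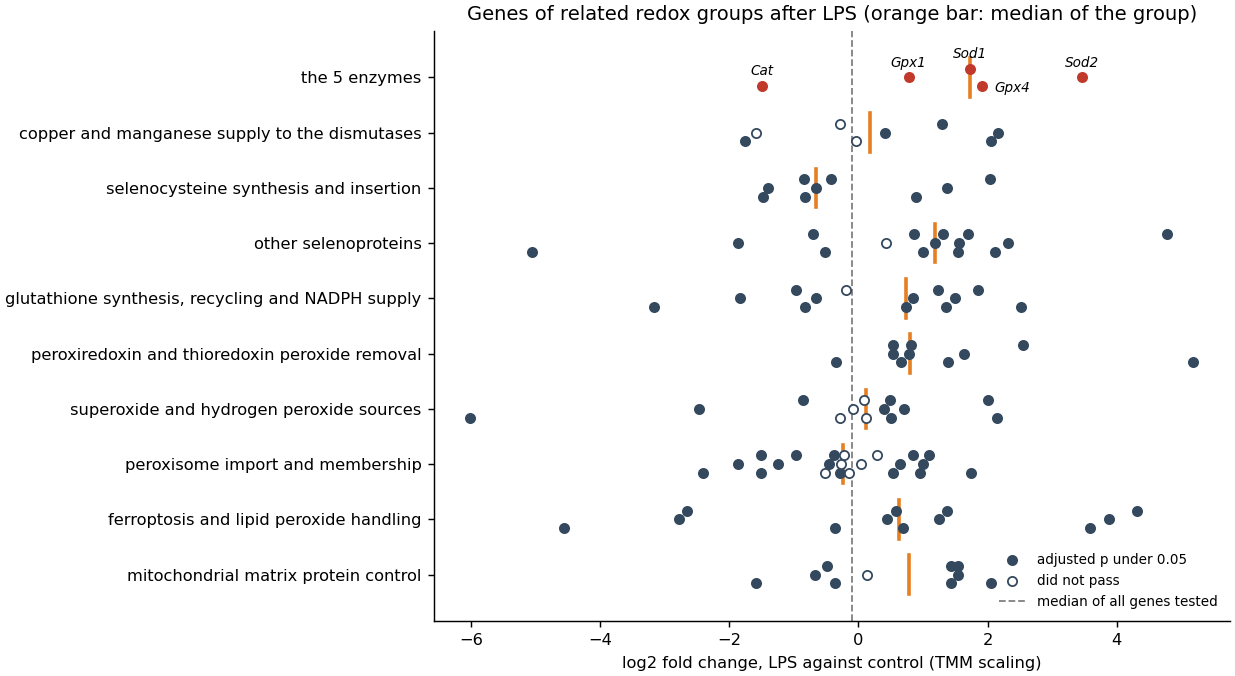
Log2 fold change for LPS against control with TMM scaling (x axis) of each tested gene, grouped by list; filled points had an adjusted p under 0.05, orange bars are list medians and the dashed line is the median of all genes, -0.10. The 5 enzymes run from -1.50 for Cat to 3.46 for Sod2, and other selenoproteins have the highest median of the other lists, 1.19.

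Ferulic acid plus LPS against LPS gave 0 called genes among the 112 genes of these lists with edgeR and TMM scaling, 38 of which had an unadjusted p under 0.05, as had 3236 of the 14065 genes tested. DESeq2 called 10 of 107 against 985 of 10778 over all genes, voom with quality weights 42 of 112 against 3400 of 14065, edgeR with no filter 11 of 124 against 719 of 25192, and limma on FPKM 0. Without ferulic acid plus LPS libraries 2 and 3, edgeR called 59 of 115 against 5664 of 15008. The smallest p in each list belonged to genes with log2 fold changes between -0.61 and 0.72. Hspd1, a mitochondrial chaperonin, came nearest to the threshold at 0.62 (SE 0.14, adjusted p = 0.0613). Among the others were Pex7, a peroxisomal import receptor, at 0.62 (SE 0.17, adjusted p = 0.0875), Ncf4, an NADPH oxidase subunit, at -0.47 (SE 0.13, adjusted p = 0.0876), and Me1, a source of NADPH, at 0.50 (SE 0.14, adjusted p = 0.0941). Scly, which recycles selenium from selenocysteine, was at -0.61 (SE 0.18, adjusted p = 0.101), Slc11a2 at -0.48 (SE 0.15, adjusted p = 0.105) and Selenot, a selenoprotein of the endoplasmic reticulum, at 0.52 (SE 0.17, adjusted p = 0.112). Tfrc, the transferrin receptor, was at 0.72 (SE 0.25, adjusted p = 0.124) and Txn1, cytosolic thioredoxin, at 0.35 (SE 0.14, adjusted p = 0.161).

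The genes whose log2 CPM followed each enzyme most closely over the 12 libraries were found among 7991 genes by the root mean square difference of profiles centred on their own means. Nearest to Sod2 were Fcgr2b (0.0947), Nfkbia (0.120) and Gch1 (0.141). Sod1 was followed by Ppie (0.0929), Eif3i (0.0976) and Rpsa (0.114), and Gpx4 by Cdc34 (0.0797), Tmem160 (0.0951) and Ppp1r35 (0.105). For Cat they were Map3k4 (0.129), Ankfy1 (0.134) and Gm42047 (0.135), and for Gpx1 Dhrs7 (0.121), Naxd (0.130) and Lpcat4 (0.132). These differences are in log2 units, and they mostly reflect the shared contrast of control with treated libraries.

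Letters searched in the 250 bases before the start, on both strands, differed among the promoters. GC boxes, present in 32.7% of 32817 mouse promoters in the RefSeq table, occurred 4 times in Sod1, 4 times in Sod2 and 1 time in Cat, and not in Gpx1. The CCAAT box, present in 33.8%, occurred 4 times in Cat and 1 time each in Sod1 and Sod2, and not in Gpx1. The kappa B consensus, present in 3.90%, matched 1 time in Sod2 and in none of the other members. TGACNNNGC, the core of the antioxidant response element, present in 10.2%, matched 1 time in Sod1 and in none of the other members, and the FOXO motif GTAAACA, present in 3.16%, matched none. Gpx4 has 4 start sites in the table, whose windows held 0 to 2 GC boxes and 0 to 3 CCAAT boxes. The GC content was 66.4% in Sod1, 63.6% in Sod2, 62.0% in Cat and 42.0% in Gpx1, against a median of 52.4% over all promoters. These matches are descriptions of letters only.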

How the data were processed

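Poly(A) RNA of 12 libraries was analysed. The deposited table holds whole-number read counts per gene with no normalization, per the file headers, and FPKM. Count over FPKM and library total gave 1 length per gene in all libraries with a read, for all 25192 genes. Those lengths come from the same values, so a gene with reads in 1 library passes by construction. The submitters' processing notes name the build GRCm39, edgeR 3.36.0 and DESeq2 1.34.0, the counter featureCounts 2.0.6, the aligner HISAT2 2.2.1 and the trimmer fastp 0.23.4. Their order, the annotation and the strand setting are not given in the sources used here. Counts were tested with edgeR 4.0.16 (limma 3.58.1, R 4.3.3), filterByExpr, TMM scaling and group as the only term over all 12 libraries. A replicate's number paired no samples (correlations of same-numbered deviations from -0.203 to 0.0838). No 2 libraries of a group agreed within sampling noise (chi-square per gene of at least 11.6). Markers and gene symbols were matched within the table, and 91 genes have no symbol. Annotation and promoters are of GRCm38, so coordinates are given for promoters only. The members, lists and alternatives were chosen with earlier results of these data known. Members were always named, and for each list, in LPS against control and in ferulic acid plus LPS against LPS, the 2 most changed of the called genes, or the 1 with the smallest p, plus Ccs, the other family genes and the 3 nearest genes of each member. A gene that this rule names in the peroxisome list is not reported here. Alternatives were other scalings and filters, DESeq2 1.42.0, voom, limma on log2(FPKM + 1) and log2(FPKM + 0.1), the replicate block, removal of a length trend, and left-out libraries. The sum of Gpx4 with Gpx4-ps2 was added after seeing the data. Programs were tested on simulated data.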

Additional observations from a re-analysis of the deposited data

Results flagged for a closer look

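Of 42 groups of 4 libraries examined for a library far from the others, 2 had one, and chance gives about 1 in 20. Sod2 in ferulic acid plus LPS library 4, at 723 CPM, stood above the other libraries of its group, at 659 to 669 CPM. This held in CPM only: in FPKM library 4, at 52.5, lay within the range of the others, 50.1 to 64.2. The FPKM ratio of Cat to Gpx1 in ferulic acid plus LPS library 2 was 6.25, against 2.52 to 2.91 in the other libraries of the group.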

How the results depend on the processing

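Depth limits Gpx1 most, at 67 to 159 reads per library, and a filter of 10 CPM leaves it untested. The LPS calls of Sod1, Sod2, Cat and Gpx4 held in direction and threshold under all alternatives run (25 each, 26 for Gpx4), as did their calls for ferulic acid plus LPS against control. For Gpx1 with LPS, the log2 fold change became -0.11 with library size scaling, -0.07 with limma on log2(FPKM + 1), -0.11 on log2(FPKM + 0.1) and 0.22 with the length trend removed. For Gpx1 with ferulic acid plus LPS against control, the same settings gave -2.6e-04, -0.01, -0.03 and 0.31. For ferulic acid plus LPS against LPS, leaving out ferulic acid plus LPS libraries 2 and 3 called 2 of the 5 members. They were Cat at -0.52 and Gpx4 at 0.37, with Sod1 at -0.01 and Gpx1 at -0.10. Over all genes 5664 of 15008 were called in that setting, so these calls do not set the 2 members apart. Those libraries were paired by their position among these same data, so the calls are no test, and the cause was not tested. Leaving out libraries 1 and 4 put Gpx4 at -0.38. Cat was -0.28 with voom, Gpx4 -0.05 with both FPKM fits, and Sod1 -0.01 with library size scaling and both FPKM fits. Leaving out each library in turn gave Sod1 -0.08 to 0.08, Cat -0.25 to 0.30, Gpx1 -0.03 to 0.20 and Gpx4 -0.09 to 0.27, with 0 members called by edgeR. Those fits differed widely over all genes. Without ferulic acid plus LPS library 2, 2670 of 14485 genes were called, and without library 3, 1415 of 14501. At most 5 genes were called with any other library left out. With the replicate number as a block, 5, 0 and 5 members were called in the 3 comparisons, as without it, and 10041, 0 and 9935 genes in all, against 10384, 40 and 10315 without it. Over all genes, ferulic acid plus LPS against LPS gave 40 calls with edgeR, 985 with DESeq2 and 3400 with voom.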
